A study of Mus musculus with 4 samples.

Results

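The laminin chain genes Lama1, Lama2, Lama3, Lama4, Lama5, Lamb1, Lamb2, Lamb3 and Lamc1 were chosen by name, 9 of the 24428 genes in the count tables. All 9 were found under these symbols, and all 9 passed the filter on low counts. The study measured RNA by sequencing in 4 libraries of mouse embryonic stem cells of strain 129SvEv, at passage 15-20, grown in medium with serum and LIF and left untreated. Smarca4 encodes a motor subunit of BAF, a complex that uses ATP to remodel chromatin. The cells of the 2 G784E libraries are labelled heterozygous Smarca4 mutants, with G784E in a Smarca4-V5 fusion. In the 2 WT libraries the V5 fusion had the wild-type sequence. Cells of both groups also made a Smarca4-GFP fusion of wild-type sequence, so that WT cells too carried tagged Smarca4. The labels do not say how many clones were used, or whether replicates came from separate cultures, so p-values here reflect how far these libraries varied, a variation that may be technical only.

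Laminins are large, cross-shaped glycoproteins of basement membranes, the thin matrix sheets under epithelia. Each is a trimer of an alpha, a beta and a gamma chain joined by a coiled coil, and its name lists the chains in that order, so that laminin-111 holds alpha 1, beta 1 and gamma 1. The alpha chain carries most of the sites for cell receptors, and its joining lets the trimer leave the cell, while beta-gamma pairs without it are mostly kept inside. Laminin-111 and laminin-511 are the laminins of the early mouse embryo, where the primitive endoderm lays down the first basement membrane next to the epiblast.

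The libraries held 6226145 and 8895433 counts in genes for G784E and 7027108 and 10083442 for WT. Levels are CPM (counts scaled to a common library size, here with TMM factors), with SD over n = 2 libraries per group, and log2 fold changes set G784E over WT, each with a standard error (SE) taken from edgeR. Smarca4 stood at 3868 and 3580 CPM in G784E, against 2423 and 2553 CPM in WT, counts that do not separate its forms. The quasi-likelihood test of edgeR, adjusted by Benjamini-Hochberg, gave 0.119 for it, while upper-quartile scaling (0.0108), limma-voom (0.03) and DESeq2 (0.00873) put its adjusted p under 0.05. The 8 listed markers of pluripotent cells, Pou5f1, Sox2 and Nanog among them, summed to 3011 and 3042 CPM in G784E, against 2433 and 2779 CPM in WT, and 0 of the 8 passed in edgeR (1 at an unadjusted p under 0.05). Counts in the 1110 genes for olfactory receptors, proteins of the nose, give a background per kilobase of coding length. Their median was 0.351 and 0.126 CPM per kilobase in G784E and 0.415 and 0.107 in WT, so that replicate 1 of both groups was higher.

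Summed over the 9 genes, laminin chain transcripts were less abundant in G784E cells. The genes that passed the test were the 3 chains of laminin-111. The 9 genes summed to 1556 and 1669 CPM in G784E, against 4851 and 5059 CPM in WT. Lama1, Lamb1 and Lamc1 made up most of that sum in every library. Lama1, Lamb1 and Lamc1 fell, no chain rose, and 6 chains gave no call. Of the 9 laminin genes, 3 were thus lower and 0 higher, where 2.56% of all 15763 genes tested were called, 1.89% lower in G784E and 0.672% higher. At an unadjusted p under 0.05 the counts were 4 lower and 0 higher. No share of all genes tested is given for that threshold, here or below, so such counts have no background beside them. DESeq2 and limma-voom called the same 3 laminin genes lower, beside 2.05% and 2.31% of the genes they tested. The median log2 fold change of the 9 genes was -0.55, beside -0.00 over all genes tested. In bulk RNA, fewer cells of a type and less RNA per cell cannot be told apart.

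**Figure D1:**
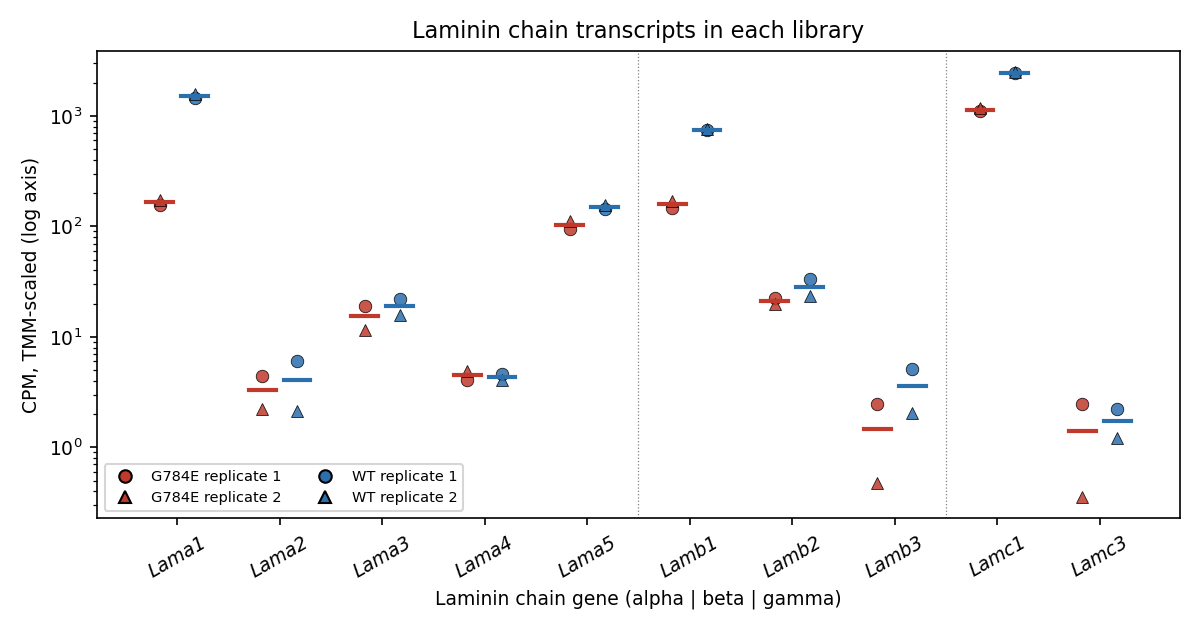
Level of the 9 laminin chain genes and Lamc3 in every library, in TMM-scaled CPM on a log axis. G784E is red and WT blue, symbols mark the replicate and bars the group mean. Lama1 in G784E (157 and 174 CPM) lies about an order of magnitude below WT (1462 and 1596 CPM), while Lama4 overlaps between the groups.

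Among the alpha chains, Lama1 fell and the others did not pass. Lama1 encodes the alpha chain of laminin-111 and stood at 157 and 174 CPM in G784E, against 1462 and 1596 CPM in WT. The groups were far apart relative to the spread within each, at 166 ± 12.2 CPM in G784E and 1529 ± 94.9 CPM in WT. The fall was 9.23-fold (log2 fold change -3.21, SE 0.21; edgeR, adjusted p = 3.67e-10). Libraries of number 1 alone gave -3.22, and those of number 2 gave -3.20.

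Lama5, the alpha chain of laminin-511, stood at 93.9 and 113 CPM in G784E, against 145 and 158 CPM in WT. Both G784E libraries were below both WT libraries, but the difference did not pass the test (log2 fold change -0.55, SE 0.20; edgeR, adjusted p = 0.209). It passed when only genes well above the receptor background were tested (-0.58, edgeR, adjusted p = 0.0197), where 4.42% of genes were called lower. Its adjusted p ran from 0.0197 to 0.812 over the alternatives without a replicate block. Of the 9 members, 5 (Lama1, Lama5, Lamb1, Lamb2 and Lamc1) had both G784E libraries below both WT libraries, an arrangement found in 19.4% of all genes tested.

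The other alpha chains were low in both groups. Lama3, the alpha chain of the epithelial laminin-332, stood at 19.1 and 11.4 CPM in G784E and at 21.9 and 15.8 CPM in WT, and the groups overlapped (log2 fold change -0.31, SE 0.30; edgeR, adjusted p = 0.852). Lama2, the alpha chain of muscle and Schwann cell laminins, stood at 4.42 and 2.24 CPM in G784E and at 6.07 and 2.13 CPM in WT. Lama4, the alpha chain of vessel walls, stood at 4.09 and 4.95 CPM in G784E and at 4.62 and 4.06 CPM in WT. In Lama2 and Lama3 the higher library of each group was replicate 1, the one with more receptor reads. Log2 fold changes were -0.30 (SE 0.74) for Lama2 and 0.06 (SE 0.60) for Lama4, so that a change of 2-fold lies within about 2 SE of either. The annotation also places an antisense gene over some exons of Lama2, Lama3 and Lamc3, and without a stated strand setting reads from both strands may be in their counts.

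Among the beta chains, Lamb1 fell and Lamb2 and Lamb3 did not pass. Lamb1, the beta chain of laminin-111, laminin-211 and laminin-511, stood at 147 and 169 CPM in G784E, against 747 and 759 CPM in WT. The groups did not overlap, and the fall was 4.76-fold (log2 fold change -2.25, SE 0.21; edgeR, adjusted p = 1.25e-07). It was -2.35 and -2.16 within the libraries numbered 1 and 2.

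Lamb2, the beta chain of synapse and kidney filter laminins, stood at 22.4 and 19.8 CPM in G784E, against 33.5 and 23.5 CPM in WT (log2 fold change -0.43, SE 0.26; edgeR, adjusted p = 0.589). The G784E libraries were lower by less than the gap between the WT libraries. Lamb3, the beta chain of laminin-332, was counted 15 and 4 times in G784E and 39 and 20 times in WT. These are 2.45 and 0.471 CPM in G784E and 5.15 and 2.03 CPM in WT, and the groups overlapped (log2 fold change -1.31, SE 1.00; edgeR, adjusted p = 0.757). Leaving out a library moved the Lamb3 value between -2.89 and -0.51.

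Lamc1, the gamma chain shared by most laminins, was the most abundant chain in every library. It stood at 1106 and 1174 CPM in G784E, against 2426 and 2499 CPM in WT. The groups did not overlap, at 1140 ± 47.9 CPM in G784E and 2462 ± 51.6 CPM in WT, and the fall was 2.16-fold (log2 fold change -1.11, SE 0.19; edgeR, adjusted p = 0.000853). Without G784E replicate 1 the value was -1.07 and did not pass (edgeR, adjusted p = 0.0982).

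Lamc3, another gamma chain gene, was taken from a list beside the 9. It stood at 2.45 and 0.353 CPM in G784E and at 2.24 and 1.22 CPM in WT, with 3 counts in G784E replicate 2, and did not pass (log2 fold change -0.32, SE 1.26; edgeR, adjusted p = 0.999).

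Chains can be compared with each other only per length. CPM were divided by the summed length of merged exons of each gene in the GENCODE annotation, which is 9.681 kilobases for Lama1, 9.917 for Lamb1 and 8.272 for Lamc1. Lamc1 then led at 138 ± 5.79 CPM per kilobase in G784E and 298 ± 6.23 in WT. Lama1 followed at 17.1 ± 1.26 CPM per kilobase in G784E and 158 ± 9.80 in WT. Lamb1 had 15.9 ± 1.59 CPM per kilobase in G784E and 75.9 ± 0.859 in WT.

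In G784E the levels of Lama1 and Lamb1 thus lay close together, with a ratio of Lama1 over Lamb1 of 1.09 and 1.05 within libraries. In WT that ratio was 2.00 and 2.15, with Lama1 clearly above Lamb1. The order of this pair depends on the length used. The longest Lamb1 transcript has 5.784 kilobases, and with the longest transcripts Lamb1 had 27.3 ± 2.73 CPM per kilobase in G784E, above Lama1 at 17.4 ± 1.28. In WT it had 130 ± 1.47 CPM per kilobase by that length, still below Lama1 at 160 ± 9.96. Which gene models the authors counted in is not stated.

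Lama5 came next by either length, at 9.07 ± 1.16 CPM per kilobase in G784E and 13.3 ± 0.781 in WT. Lamb2 followed at 3.47 ± 0.306 CPM per kilobase in G784E and 4.68 ± 1.17 in WT, by merged exons. Lama3 had 1.42 ± 0.508 in G784E and 1.76 ± 0.400 in WT. Lama4, Lama2, Lamb3 and Lamc3 had group means of 0.204 to 0.375 CPM per kilobase in G784E and 0.251 to 0.543 in WT, and their order was not resolved.

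Set against the receptor genes, Lama1, Lama5, Lamb1, Lamb2 and Lamc1 were above the 95th percentile of the receptors in all 4 libraries. That percentile was 2.27 and 1.07 CPM per kilobase in G784E and 1.93 and 0.738 in WT. Lama2, Lama4, Lamb3 and Lamc3 were below it in all 4 libraries by merged exons. By that length Lama3 was above it in both WT libraries and in neither G784E library. The levels of Lama2, Lama4, Lamb3 and Lamc3 cannot be told apart from background at this depth.

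**Figure D2:**
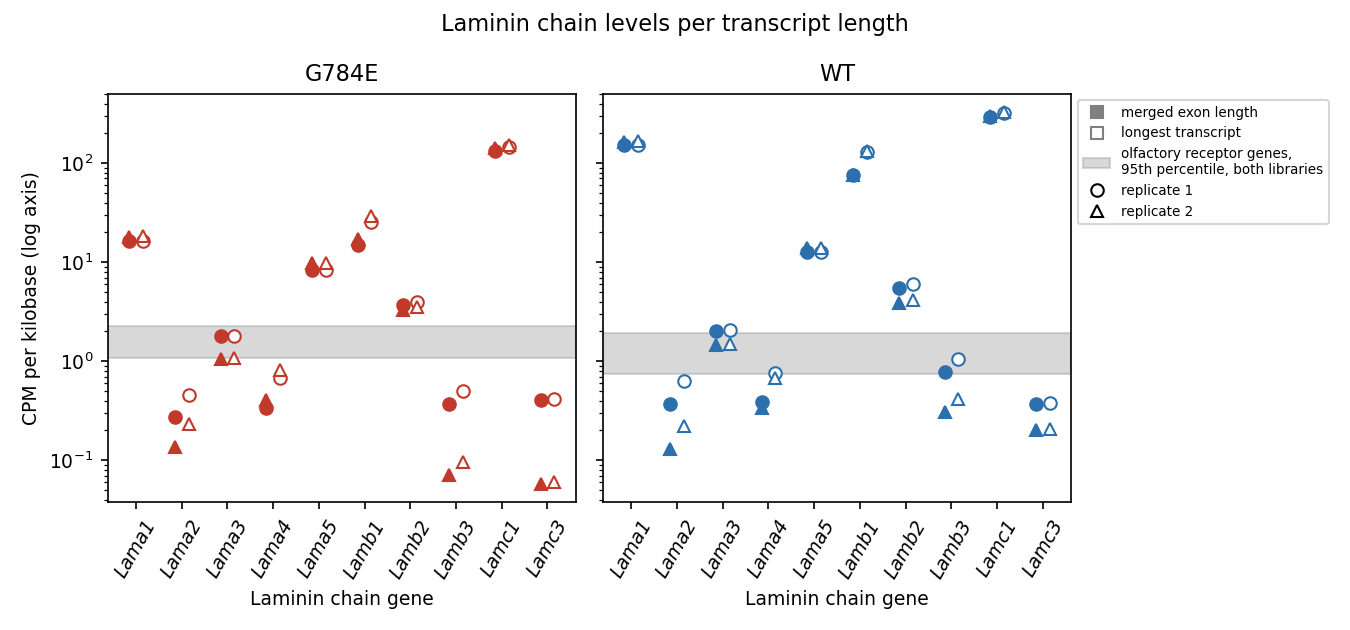
Level of the 9 laminin chain genes and Lamc3 per kilobase, on a log axis, in G784E (left) and WT (right). Filled symbols use merged exon length, open symbols the longest transcript, and the grey band spans the 95th percentile of 1110 olfactory receptor genes in both libraries of the group. Lamc1 is highest in both groups, at 138 CPM per kilobase in G784E and 298 in WT, and Lama2, Lama4 and Lamc3 lie below the band or at its lower edge.

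Lama1 held a smaller share of the alpha chains in both G784E libraries, and Lama5 a larger one. Lama1 made up 60.4% and 61.0% of the summed alpha-chain level per length in G784E, against 90.7% and 91.3% in WT. Lama5 made up 30.7% and 33.5% in G784E, against 7.65% and 7.66% in WT. The shares of each group lay within 3 percentage points of each other, and the groups did not overlap. With 2 libraries against 2, the two-sided exact permutation test cannot go below p = 0.333, so that no share or ratio here can pass it, and both chains gave that value. Of the 6 ratios compared, all gave it too.

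Expressed as a ratio, Lama1 over Lama5 was 1.97 and 1.82 in G784E, against 11.9 and 11.9 in WT, a log2 difference of -2.65. A ratio within a library does not depend on the scaling between libraries. It shows that the 2 alpha chains changed unequally, and not which of them stayed constant. The summed alpha-chain level was 26.9 and 29.5 CPM per kilobase in G784E, against 166 and 181 in WT.

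Among the beta chains, Lamb1 held a smaller share in both G784E libraries. Lamb1 made up 78.5% and 83.7% of the beta-chain level per length in G784E, against 92.3% and 94.8% in WT (exact permutation test, two-sided, p = 0.333, the smallest it can give). Lamb2 made up 19.5% and 16.0% in G784E, against 6.76% and 4.78% in WT.

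**Figure D3:**
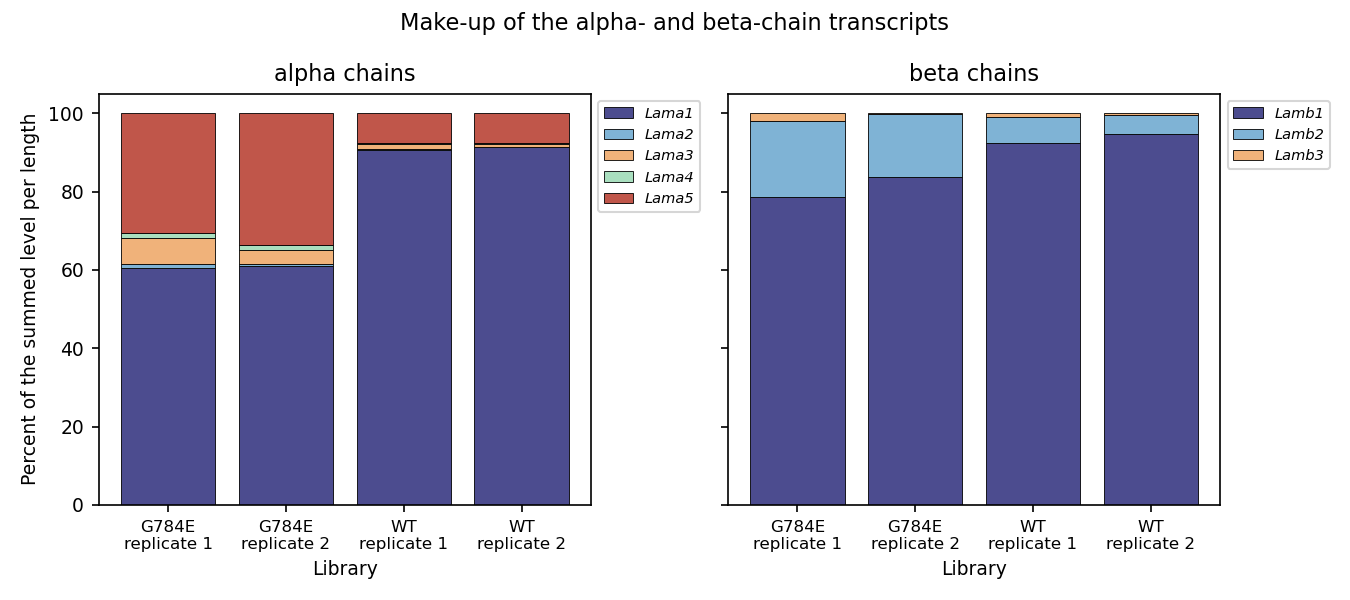
Share of each gene in the summed level per length of the alpha chains (left) and beta chains (right), in percent, by merged exon length, one bar per library. Lama5 takes 30.7% and 33.5% of the alpha chains in G784E, against 7.65% and 7.66% in WT.

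The 3 chains of laminin-111 had fold changes of unequal size. Lama1 over Lamc1 was 0.121 and 0.127 in G784E, against 0.515 and 0.546 in WT, a log2 difference of -2.10. Lamb1 over Lamc1 was 0.111 and 0.120 in G784E, against 0.257 and 0.253 in WT, a log2 difference of -1.14. Lama1 over Lamb1 was 1.09 and 1.05 in G784E, against 2.00 and 2.15 in WT, a log2 difference of -0.95. In each of these ratios the groups did not overlap and the libraries of a group lay close together.

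Lama5 over Lamc1 moved the other way, at 0.0617 and 0.0697 in G784E, against 0.0434 and 0.0458 in WT. The log2 differences of these ratios are the same by either gene length, since the length cancels.

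**Figure D4:**
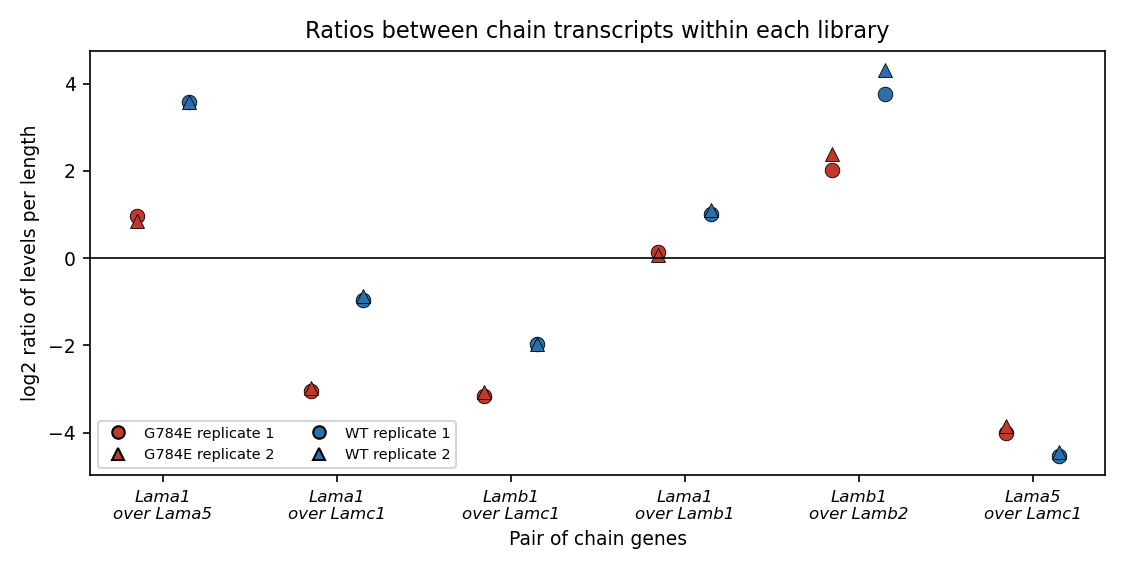
Log2 ratio of the levels per length of pairs of chain genes, in each library, by merged exon length, with G784E in red and WT in blue. Lama1 over Lama5 is 0.97 and 0.86 in G784E, against 3.57 and 3.57 in WT, and Lama5 over Lamc1 is the pair in which G784E lies above WT.

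For a trimer, the scarcest chain transcript sets a ceiling on how many could be assembled from these RNA levels alone, without regard to translation or stability. For laminin-111 it was Lamb1 in all 4 libraries by merged exons, at 14.8 and 17.1 CPM per kilobase in G784E, against 75.3 and 76.5 in WT. By longest transcripts it was Lama1 in both G784E libraries, at 16.5 and 18.3, and Lamb1 in both WT libraries, at 129 and 131. For laminin-511 it was Lama5 by either length, at 8.25 and 9.89 CPM per kilobase in G784E, against 12.7 and 13.8 in WT. Laminin-111 remained above laminin-511 in this measure in both groups, by a wider margin in WT. Each ceiling was taken on its own, although both trimers draw on Lamb1 and Lamc1. Bulk RNA also does not show whether the chains were made in the same cells.

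Trimers with the beta 2 chain were limited by Lamb2 or by their alpha chain. For laminin-121 and laminin-521 the scarcest chain was Lamb2 in all 4 libraries, at 3.69 and 3.25 CPM per kilobase in G784E, against 5.51 and 3.86 in WT. Trimers with Lama3, laminin-311 and laminin-321, were limited by Lama3, at 1.78 and 1.06 in G784E, against 2.04 and 1.47 in WT. By merged exons Lama3 was below the 95th percentile of the receptors in both G784E libraries and above it in both WT libraries. Trimers of Lama2 (laminin-211 and laminin-221) and Lama4 (laminin-411 and laminin-421) were limited by chains at the receptor background in both groups.

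Lamb1 and Lama5, a chain that fell and a chain that did not pass, are shown with their upstream sequence, since both are chains of laminin-511. Of the 9 members, 5 (Lama2, Lama5, Lamb1, Lamb2 and Lamb3) had a promoter window in the RefSeq table of build GRCm38.p6, which differs from the mm9 build of the counts. The windows run from 250 bases before a start to 50 after it. The part before the earliest RefSeq start of the gene is printed 5′ to 3′ on the gene's strand, with GC boxes in capitals. That of Lamb1 lies at chr12:31265043-31265145 on the plus strand and that of Lama5 at chr2:180225905-180226109 on the minus strand.
Lamb1: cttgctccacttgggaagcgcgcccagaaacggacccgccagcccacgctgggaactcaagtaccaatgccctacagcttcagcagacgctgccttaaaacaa
Lama5: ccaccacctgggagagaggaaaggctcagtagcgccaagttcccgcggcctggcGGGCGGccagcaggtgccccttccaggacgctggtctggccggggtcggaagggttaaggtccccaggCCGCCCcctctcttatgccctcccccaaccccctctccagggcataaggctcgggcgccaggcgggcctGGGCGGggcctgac
In the full windows the GC box (GGGCGG, either strand) occurred 2 times for Lamb1, both times nearer the start than the printed stretch, and 4 times for Lama5, 3 of them printed. Lamb2 and Lamb3 had none and Lama2 had 1, and 35.7% of all 32851 promoter windows hold at least 1. The GATA motif (AGATAA or TGATAA, either strand) was in none of the windows of these 5 genes, beside 18.6% of all windows. GC content was 63.7% for Lamb1 and 72.7% for Lama5.

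Among laminin receptors, Sdc4 and Itga3 fell. They are 2 of 13 genes tested, where 1.89% of all genes tested were called lower, and 0 of the 13 passed as higher. At an unadjusted p under 0.05, 4 were lower and 2 higher. Sdc1 (0.69) and Itgb4 (0.66) had positive values, and the median over the list was -0.33 (log2). Sdc4, the heparan sulfate proteoglycan syndecan 4, stood at 75.8 and 91.6 CPM in G784E, against 187 and 168 CPM in WT (log2 fold change -1.08, SE 0.20; edgeR, adjusted p = 0.00251). Itga3, the integrin alpha 3 subunit that binds laminin-332 and laminin-511, stood at 36.2 and 39.7 CPM in G784E, against 62.1 and 70.2 CPM in WT (log2 fold change -0.80, SE 0.21; edgeR, adjusted p = 0.0409). The Itga3 call was lost with RLE scaling (-0.80, adjusted p = 0.0602), in DESeq2 (-0.80, adjusted p = 0.0527) and without G784E replicate 1 (-0.74), WT replicate 1 (-0.89) or WT replicate 2 (-0.68).

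The main laminin receptors of stem cells gave values that did not pass. Itga6 and Itgb1, which pair as the integrin receptor for laminin-111 and laminin-511, had log2 fold changes of -0.36 (SE 0.21) and -0.33 (SE 0.20). Dag1, which encodes dystroglycan, stood at 259 and 303 CPM in G784E, against 232 and 254 CPM in WT (0.21, SE 0.20). Of the 13 genes for enzymes that build the laminin-binding sugar of dystroglycan, such as Pomt1 and Large, 0 passed in edgeR, DESeq2 or limma-voom in either direction (1 higher in edgeR at an unadjusted p under 0.05), and their log2 fold changes ran from -0.46 to 0.60 with a median of 0.24.

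Other basement membrane genes fell with the laminins. Of 18 laminin-binding matrix partners tested, 5 fell and 0 passed as higher (list median -0.34 on the log2 scale). Of all genes tested, 1.89% were called lower in G784E and 0.672% higher. Col4a1 and Col4a2, the type IV collagen chains of most basement membranes, fell most. Col4a1 stood at 63.0 and 56.9 CPM in G784E, against 817 and 847 CPM in WT (log2 fold change -3.80, SE 0.22; edgeR, adjusted p = 5.34e-11). Col4a2 stood at 37.9 ± 15.4 CPM in G784E, against 497 ± 15.5 CPM in WT (-3.72, SE 0.26; edgeR, adjusted p = 7.64e-10).

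The other 3 that fell were Sparc (-2.75), a collagen-binding matrix protein, Tinagl1 (-2.61) and Nid2 (-1.29), a nidogen that links laminin to type IV collagen. The linkers and heparan sulfate proteoglycans Nid1 (-0.34, SE 0.20), Hspg2 (-0.56, SE 0.20) and Agrn (-0.33, SE 0.20) did not pass. Type IV collagen chains of specialised membranes, Col4a3 to Col4a6, had group means between 1.66 and 4.05 CPM in G784E and WT, and none passed.

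**Figure D5:**
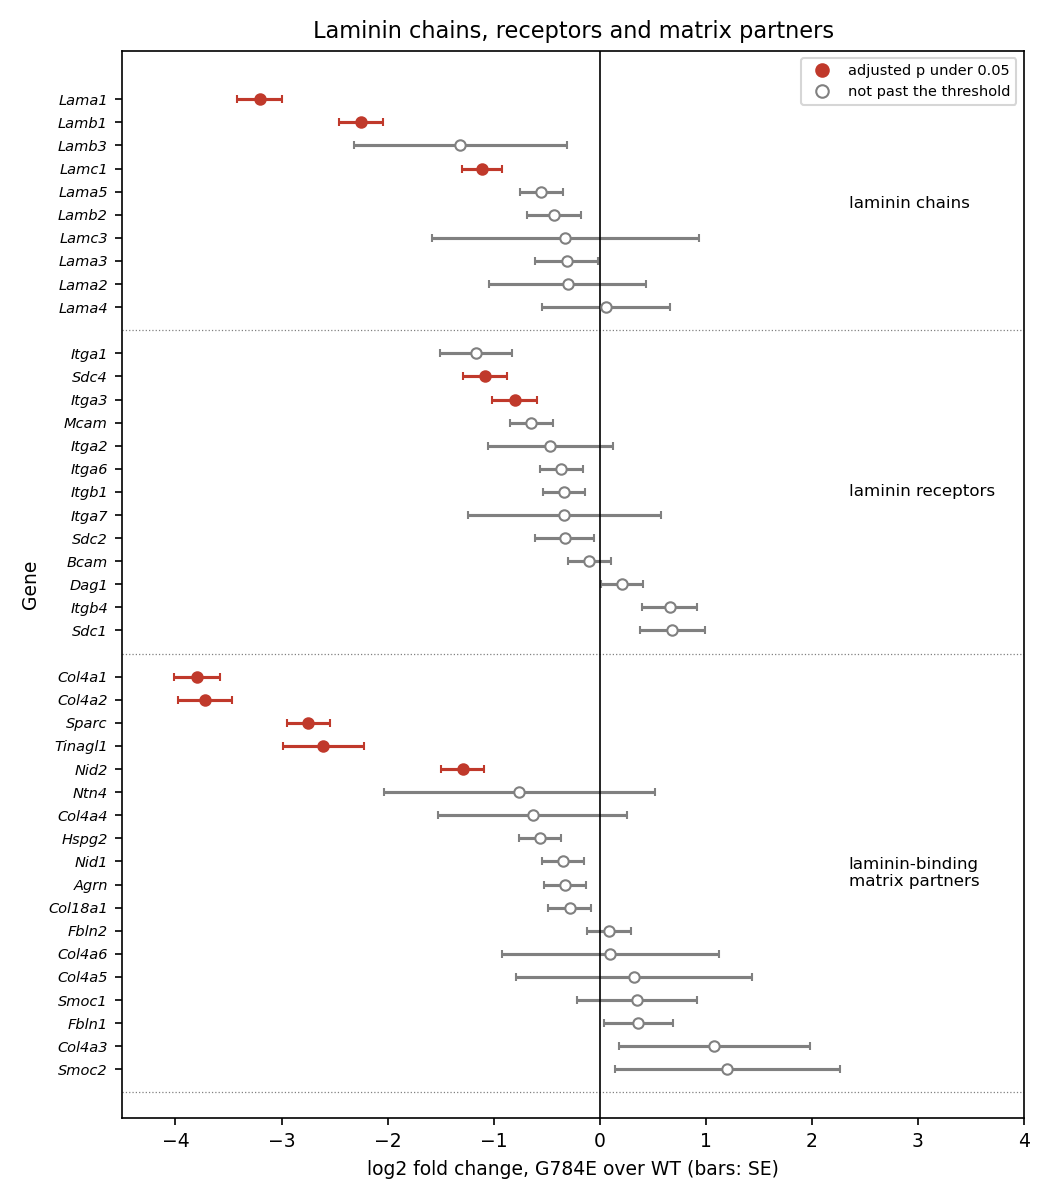
Log2 fold changes, G784E over WT, of the laminin chain genes (with Lamc3), laminin receptors and laminin-binding matrix partners, with bars of 1 SE. Filled red points passed edgeR's test at an adjusted p under 0.05. Col4a1 (-3.80), Col4a2 (-3.72) and Lama1 (-3.21) lie farthest to the left of the genes plotted, and Lamb1 (-2.25) lies to the right of Sparc (-2.75) and Tinagl1 (-2.61).

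Many of the listed endoderm genes fell with the laminin chains, where 1.89% of all genes tested were called lower in G784E. Of 9 primitive endoderm regulators, 6 fell (Gata6, Gata4, Sox17, Sox7, Pdgfra and Dab2), and the list summed to 49.9 and 45.6 CPM in G784E, against 414 and 425 CPM in WT. Dab2, an endocytic adaptor of endoderm, stood at 19.8 and 23.9 CPM in G784E, against 229 and 240 CPM in WT (log2 fold change -3.41; edgeR, adjusted p = 3.67e-10), and Gata4 had a log2 fold change of -3.41 (adjusted p = 3.94e-08). Of 9 parietal endoderm markers, Sparc among them, 6 fell, and the list summed to 332.2 and 312.7 CPM in G784E, against 2106 and 2076 CPM in WT. Sparc alone made up most of that sum, at 286 and 275 CPM in G784E and 1898 and 1866 CPM in WT. Srgn, the proteoglycan serglycin, was at -4.52 (edgeR, adjusted p = 5.34e-11). Of 9 visceral endoderm markers, 4 passed the filter on low counts, and of these Cubn (-4.68) and Lrp2 (-3.84) fell. Afp (0.79) and Trf (0.53) had positive values and did not pass. The list summed to 57.8 and 63.7 CPM in G784E, against 746 and 901 CPM in WT. Most of the WT sum came from Cubn (349 and 407 CPM) and Lrp2 (382 and 482 CPM). The part of endoderm cells in the fall of the laminin chains was not tested.

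Among the marker lists of other cell types, only that of trophectoderm held called genes. Of all genes tested, 1.89% were called lower in G784E and 0.672% higher. Of 7 trophectoderm markers, Krt19 (-1.71; edgeR, adjusted p = 0.000464) and Eomes (-1.72; adjusted p = 0.00642) fell, and the list summed to 53.3 and 51.7 CPM in G784E, against 82.0 and 79.5 CPM in WT. Tfap2c (0.65) and Cdx2 (0.13) had positive values and did not pass. At an unadjusted p under 0.05, 2 of the list were lower and 1 higher. The Eomes call was lost without WT replicate 2 (-1.66, edgeR, adjusted p = 0.131). Fibroblast markers, 8 of 10 tested, summed to 92.5 and 72.4 CPM in G784E and to 88.6 and 58.5 CPM in WT, and 0 passed in edgeR, 0 also at an unadjusted p under 0.05. Endothelial markers, 6 of 8 tested, summed to 61.2 and 55.0 CPM in G784E, against 95.3 and 79.4 CPM in WT, and 0 passed in edgeR (3 lower at an unadjusted p under 0.05). Muscle markers (1 of 6 tested), Schwann and glial markers (3 of 5) and markers of stratified epithelium (5 of 6) also gave no call. Their sums reached at most 9.64, 11.9 and 57.4 CPM in any library, and no marker of any list was at 0 in all 4 libraries.

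Genes with a pattern like that of each fallen chain were named by distance, the Euclidean distance of log2 CPM, centred on the mean of the 4 libraries. The pool was the 10267 tested genes with a mean of at least 5 CPM. Predicted-gene and clone symbols and the laminin chains were then left out of it. With only 4 libraries this ranking is a description. For Lama1 the nearest were Podxl (distance 0.143), which encodes podocalyxin, a sialomucin of the cell surface, Dab2 (0.239), Serpinh1 (0.26), which encodes the collagen chaperone of the endoplasmic reticulum, Nxf7 (0.276) and Slc39a8 (0.353), a zinc transporter gene. Podxl stood at 19.5 and 23.7 CPM in G784E, against 182 and 189 CPM in WT.

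For Lamb1 they were Rnf128 (0.148), Igsf11 (0.166), Fgf10 (0.176), Adamts9 (0.184), a secreted metalloprotease gene, and Fam111a (0.225). Adamts9 stood at 11.3 and 11.9 CPM in G784E, against 59.6 and 63.5 CPM in WT. For Lamc1 they were Tnfrsf21 (0.0813), Cpeb2 (0.0915), Phf11d (0.0979), F2r (0.111), a thrombin receptor gene, and Plekhh1 (0.114). Tnfrsf21 stood at 30.1 and 33.5 CPM in G784E, against 66.4 and 65.8 CPM in WT.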

How the data were processed

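For each library the authors deposited a table of raw counts by gene symbol. The tools listed in the submitters' processing notes are HTSeq, DESeq2, Bowtie2 2.1.0 and CASAVA 1.8.2, and the build is mm9. Annotation, counting mode and strand were not stated there. Summary rows that name no gene held 83.3% to 88.7% of each table (55.4% to 61.8% not placed uniquely) and were left out. A floor of 3 counts was 0.298 to 0.482 CPM, before scaling, and covers counting error only.

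Groups were compared by quasi-likelihood in edgeR 4.0.16 (R 4.3.3) with TMM scaling and filterByExpr (minimum count 10, minimum total count 15), on group alone with 2 residual degrees of freedom, over 15763 of 24428 genes, with Benjamini-Hochberg adjustment and a threshold of 0.05. Alternatives were other scalings and filters, DESeq2 1.42.0, limma-voom (limma 3.58.1), leaving out each library or Rn45s, and a replicate block. Gene lengths came from GENCODE M21 (GRCm38), matched by symbol for 96.4% of genes. Members, lists and tests were chosen with earlier results of these data known. Replicates differed by more than sampling noise (chi-square per degree of freedom 15.4 in G784E and 9.22 in WT). Named genes are the members, Smarca4, up to 2 lower and 2 higher genes per list by adjusted p, and the 5 nearest to each fallen chain; others named were chosen after their values were seen. Some genes of the lists are not reported here.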

Additional observations from a re-analysis of the deposited data

How the results depend on the processing

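Lama1 and Lamb1 passed in all 12 alternatives that model the group alone (log2 fold changes -3.36 to -3.11 and -2.43 to -2.16), and Lamc1 in 11 of 12 (-1.23 to -1.06), the exception being without G784E replicate 1 (-1.07, edgeR, adjusted p = 0.0982). The same 3 laminin genes were among those called in each other setting, and no called value changed sign. Values of Lama2 and Lama4, which did not pass, changed sign with the library left out. Without a library, the count of genes lower in G784E ran from 150 to 579 and higher from 26 to 161, and the count of laminin receptors lower from 1 to 2. RLE scaling and DESeq2 each called 1 receptor lower. Limma-voom called 186 genes higher, and testing only genes at 5 times the receptor median or more, chosen after seeing the data, called 251 higher and moved Lama5 past the threshold (-0.58, adjusted p = 0.0197). The cause of these moves was not tested.

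Replicate numbers are shared by the groups, but nothing in the labels says that they pair libraries. Deviations of same-numbered libraries from their group means had a correlation of 0.487 across genes. With a replicate block, edgeR called 658 genes lower and 546 higher, 4 receptors lower, and Lama5 (-0.55, adjusted p = 0.00571).

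By longest transcripts the Lama1 share of the alpha chains was 59.9% in G784E, and the Lamb1 share of the beta chains 87.0% in G784E and 95.7% in WT. With no division by length, Lama1 held 56.7% in G784E and 89.5% in WT, and Lamb1 87.4% in G784E and 95.9% in WT. Without a library, these shares by merged exons ran from 60.4% to 61.0% (Lama1) and 78.5% to 83.7% (Lamb1) in G784E, and from 90.7% to 91.3% and 92.3% to 94.8% in WT. Depth limits Lama2, Lama4, Lamb3 and Lamc3, at 3 to 46 counts per library.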
